A study of Mus musculus with 18 samples.

Results

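The 10 genes described here are expressed by the lining of blood vessels, the endothelium, and were followed in the developing hindlimb of mouse embryos with and without Pitx1, a homeobox gene that marks the hindlimb from its beginning. The members were the rows whose gene name equalled Pecam1, Cdh5, Kdr, Flt1, Tek, Tie1, Emcn, Esam, Cldn5 or Sox17, and all 10 were found among the 23919 genes kept from the deposited tables. The rule uses gene names, and the list was drawn up with earlier results of these data known. The 18 libraries were stranded mRNA libraries from C57BL/6 embryos, wild type (WT) or Pitx1-/- (KO), with 3 libraries per genotype at each of the embryonic stages E9.5, E11.5 and E12.5. The labels give no detail of the Pitx1 allele and no other allele or agent in either genotype. The E9.5 samples held the field of the future hindlimb together with associated trunk, and the later samples held hindlimb. The labels do not say if replicates were separate embryos, litters or pools, so p-values reflect the spread among these libraries alone, which may be technical.

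Endothelial cells line every blood vessel. They first form a plexus in the embryo and then sprout and remodel into arteries, veins and capillaries as tissue grows, and the early limb bud is supplied by such a plexus. Their growth is steered by secreted VEGF proteins, which act through the receptor tyrosine kinases Kdr (VEGFR2) and Flt1 (VEGFR1), and by angiopoietins, which act through Tek (Tie2) with the related receptor Tie1. The cells are held together by Cdh5 (VE-cadherin), Pecam1 (CD31), Esam and Cldn5 (claudin 5), and carry the sialomucin Emcn (endomucin) on their surface. Sox17 is a transcription factor of arterial endothelium and also of gut endoderm, so its messenger is not specific to vessels.

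Expression is given as RPKM, the deposited number of fragments scaled by transcript length and library size, which allows levels to be compared between genes. Every one of the 10 genes was detected in all 18 libraries. The least covered member was Sox17, with 66 to 147 fragments per library in E12.5 wild type, and Flt1 had at least 196 fragments in every library. Fragment totals per library ran from 14433301 to 60672151. At E9.5 the knockout libraries were all shallower (14433301 to 18648021) than the wild-type libraries (20673065 to 40020110). At E11.5 they were all deeper (44986881 to 60672151) than the wild-type libraries (38770845 to 40973174). At E12.5 the ranges overlapped (22487030 to 30166719 in knockout and 24290472 to 39397236 in wild type).

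Pitx1 itself was measured first as a check of the labels. It lay at 54.8 ± 5.55 RPKM (SD, n = 3) in wild type and 22.5 ± 3.63 in knockout at E9.5, and at 120 ± 16.3 and 20.2 ± 2.96 at E11.5. At E12.5 the wild-type libraries held 114, 112 and 44.6 RPKM and the knockout 11.9 ± 1.32. Pitx1 fragments thus remained in the libraries labelled knockout, and the third E12.5 wild-type library stood apart from its group. The E12.5 log2 fold change of Pitx1 was -2.92 ± 0.40 (SE, edgeR adjusted p = 0.125), against -1.28 (0.0231) at E9.5 and -2.57 (6.52e-05) at E11.5.

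The stretches of DNA upstream of the transcription start of 6 members (Kdr, Flt1, Tek, Tie1, Emcn and Cldn5) were in the RefSeq promoter table for mouse build GRCm38.p6. This build differs from the mm9 build of the deposited counts, and no measured value is placed on these coordinates. ETS-type factors bind the core letters GGAA, and many endothelial enhancers and promoters are known to carry such sites. The letters AGGAAG, searched on both strands, were found in 3 of the 6 windows of 250 bases (Emcn, Tie1 and Flt1) and in 29.5% of all 32851 promoter windows of that length. The windows of Kdr, Tek and Cldn5 hold no match. Cldn5 had the largest stage difference of the 10 genes, and a link between matches and stage differences was not tested. The windows of Flt1 and Emcn, which each hold a pair of matches, and of Cldn5 are shown as a comparison. They run 5′ to 3′, with the AGGAAG matches on either strand in capitals.
Flt1 (GRCm38.p6 chr5:147726012-147726261, minus strand): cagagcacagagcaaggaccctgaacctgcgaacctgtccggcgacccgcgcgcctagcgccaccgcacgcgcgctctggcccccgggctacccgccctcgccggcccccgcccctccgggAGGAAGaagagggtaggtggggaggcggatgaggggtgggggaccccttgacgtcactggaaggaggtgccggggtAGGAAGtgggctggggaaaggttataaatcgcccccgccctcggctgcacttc
Emcn (GRCm38.p6 chr3:137340828-137341077, plus strand): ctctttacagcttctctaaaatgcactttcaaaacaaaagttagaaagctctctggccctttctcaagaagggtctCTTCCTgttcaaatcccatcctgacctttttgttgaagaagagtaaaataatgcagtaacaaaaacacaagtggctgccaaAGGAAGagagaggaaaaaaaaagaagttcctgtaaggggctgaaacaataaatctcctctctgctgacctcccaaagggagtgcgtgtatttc
Cldn5 (GRCm38.p6 chr16:18776597-18776846, plus strand): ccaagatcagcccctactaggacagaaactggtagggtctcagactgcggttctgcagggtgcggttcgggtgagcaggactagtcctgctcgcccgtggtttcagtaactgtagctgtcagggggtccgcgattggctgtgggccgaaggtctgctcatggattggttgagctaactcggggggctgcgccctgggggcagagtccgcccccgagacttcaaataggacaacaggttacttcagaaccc
In Flt1 both matches lie on the strand of the gene, beginning 129 and 53 bases before the start. In Emcn they begin 174 bases before the start, on the opposite strand, and 93 bases before it. The SOX-type letters AACAAT occurred in 2 of the 6 windows (Emcn and Tek) against 9.42% of all windows, and the GATA-type letters AGATAA in 0 of the 6 against 9.99%. A match describes letters only, and no match says only that these letters are not in this window.

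The levels of the 10 genes spanned more than an order of magnitude within each group. At E9.5 Cldn5, which encodes a tight junction protein, was the highest, with 38.0, 44.7 and 29.4 RPKM in wild type and 39.3, 44.7 and 44.9 in knockout. Its wild-type range overlapped with that of Cdh5, the adherens junction cadherin, at 27.0, 32.7 and 36.4 RPKM. Cdh5 in turn overlapped with Emcn (34.8, 35.4 and 23.0 RPKM). A middle group followed in wild type at E9.5, formed by Esam (18.3 ± 1.21), Tie1 (17.9 ± 2.90), Kdr (17.7 ± 3.36) and Pecam1 (17.4 ± 0.877), whose ranges overlapped from each to the next. Tek, at 8.84 ± 0.0929 RPKM, lay below all libraries of that middle group. Sox17 (3.53 ± 0.303) and Flt1 (3.52 ± 0.864) were the lowest and overlapped.

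At E11.5 and E12.5 the order was led by Emcn, with means of 19.2 ± 4.50 and 18.7 ± 2.29 RPKM in wild type and knockout at E11.5 and 23.7 ± 2.53 and 21.1 ± 1.19 at E12.5. Emcn and Cdh5 overlapped in both groups at E11.5 and in E12.5 wild type, and in E12.5 knockout Emcn (19.7 to 21.9 RPKM) lay just above Pecam1 (19.3 to 19.7). Cldn5 now stood among Esam, Kdr and Tie1, at 11.2 ± 1.45 RPKM in E11.5 wild type and 11.7 ± 0.843 in E12.5 wild type. Flt1 and Sox17 were again the 2 lowest in each group. Sox17 was at 1.40 ± 0.484 RPKM in E11.5 wild type and 0.996 ± 0.231 in E12.5 wild type. Levels from different stages were normalized in separate tables and are set side by side here without a test.

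**Figure D1:**
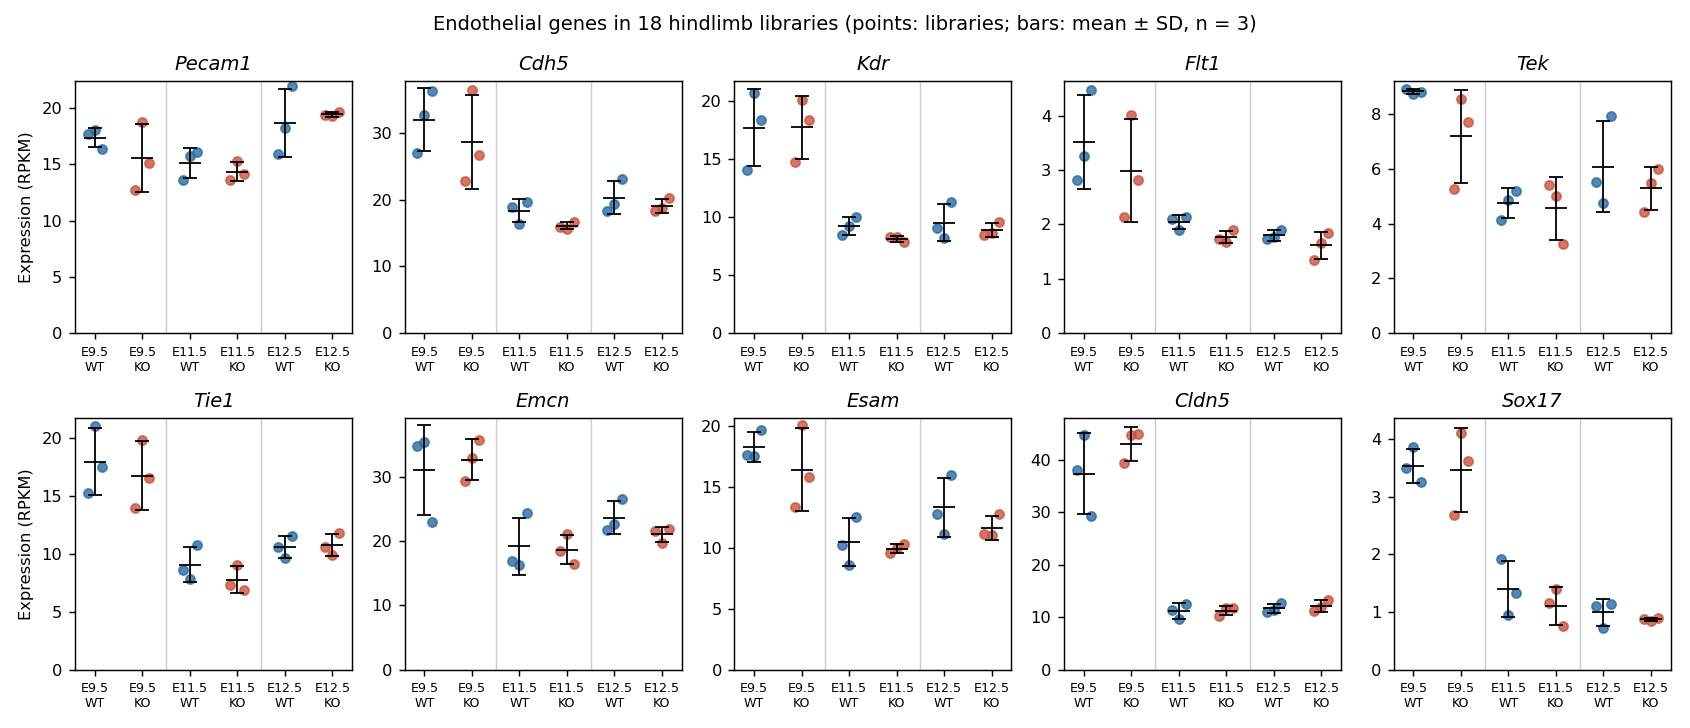
Expression (RPKM, y axis) of each of the 10 endothelial genes in the 18 libraries, by stage and genotype (x axis). Points are libraries and bars are mean ± SD (n = 3). Cldn5 lies between 29.4 and 44.9 RPKM in the E9.5 libraries and between 9.65 and 13.3 in the later ones.

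The first comparison asked how the knockout differed from wild type within a stage, which is the comparison the design is built for. None of the 10 endothelial genes passed the threshold at any of the 3 stages (edgeR's quasi-likelihood test, adjusted p under 0.05 over all genes tested), and 0 had an unadjusted p under 0.05, where 4.01%, 22.2% and 15.1% of all genes tested did at the successive stages. DESeq2 and limma also called 0 of the 10 at each stage. Among all genes tested, 0.0217% were called at E9.5, 1.96% at E11.5 (0.945% higher and 1.01% lower) and 0.0138% at E12.5. The medians of the 10 log2 fold changes (KO minus WT) were -0.13, -0.13 and -0.10, beside -0.0044, -0.013 and -0.00046 over all genes tested. Negative values were seen for 8, 9 and 7 of the 10 genes. The genes tended to be high or low in the same library, so these counts are not independent tests. In bulk tissue, fewer endothelial cells and less RNA per cell cannot be told apart. Misses of the threshold do not show equal expression: over the 10 genes the 95% intervals of the log2 fold change reached from -0.81 to 0.53 at E9.5, from -0.89 to 0.38 at E11.5 and from -0.67 to 0.44 at E12.5.

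Of the VEGF receptor genes among the 10, Kdr had separate ranges at E11.5. Its wild-type libraries held 8.47, 9.28 and 9.996 RPKM and its knockout libraries 8.26, 8.30 and 7.82. The ranges did not overlap, but the log2 fold change was -0.18 ± 0.087 (SE; 95% interval -0.38 to 0.01) with adjusted p = 0.242 by edgeR. Kdr was the only member with separate ranges at that stage, where 27.7% of all genes tested had them (14% lower). At E9.5 Kdr lay at 14.1, 20.7 and 18.4 RPKM in wild type and 14.8, 20.1 and 18.4 in knockout, and its fold change was close to 0 (interval -0.36 to 0.36). Flt1, which binds VEGF strongly and signals weakly, had values of -0.24 ± 0.25 at E9.5, -0.21 ± 0.13 at E11.5 and -0.15 ± 0.14 at E12.5 (SE), each with an interval that includes 0. The third VEGF receptor gene, Flt4, of lymphatic and early vascular endothelium, is no member and lay at 2.96 ± 0.22 RPKM in E11.5 wild type and 2.30 ± 0.35 in knockout, also with separate ranges (log2 fold change -0.36 ± 0.13, edgeR adjusted p = 0.154).

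Of the angiopoietin receptor genes, Tek had separate ranges at E9.5. It held 8.94, 8.75 and 8.84 RPKM in wild type and 5.29, 8.57 and 7.73 in knockout. All 3 knockout libraries lay below the narrow wild-type range, the first by the widest margin, and the log2 fold change was -0.30 ± 0.16 (SE; 95% interval -0.67 to 0.07, edgeR adjusted p = 0.999). Tek was the only member with separate ranges at E9.5, against 9.29% of all genes tested (4.59% lower). At E11.5 Tek lay at 4.14, 4.88 and 5.21 RPKM in wild type and 5.43, 5.01 and 3.25 in knockout, with overlap, and the log2 fold change was -0.04 ± 0.19. Tie1 had log2 fold changes of -0.10 ± 0.15, -0.22 ± 0.14 and 0.02 ± 0.095 (SE) at the 3 stages.

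No junction or surface gene passed the threshold either. Cdh5 held 19.0, 16.4 and 19.7 RPKM in E11.5 wild type and 16.0, 15.7 and 16.7 in E11.5 knockout. The ranges overlapped at their edges, and the log2 fold change of -0.19 ± 0.086 (SE; interval -0.38 to 0.00) gave adjusted p = 0.228 by edgeR, the lowest of the 10 genes at any stage. Pecam1, an adhesion molecule of the cell borders, had values of -0.17 ± 0.14, -0.07 ± 0.092 and 0.05 ± 0.11 from the earliest to the latest stage. Cldn5 was the only member with a positive estimate at all 3 stages (0.20 ± 0.15, 0.01 ± 0.13 and 0.06 ± 0.11), none past the threshold. Esam and Emcn had estimates between -0.19 and 0.07. Sox17, the arterial transcription factor, had values of -0.05 ± 0.19, -0.28 ± 0.28 and -0.10 ± 0.23, and its interval was the widest at E11.5 (-0.89 to 0.34).

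At E12.5 no member had separate ranges, against 21.7% of all genes tested (10.3% lower), and the third wild-type library bore on the sign of the estimates. This library was the highest of its group for all 10 members. Without it the 10 log2 fold changes ran from -0.11 to 0.19 with a median of 0.03, 4 were negative in place of 7, and 0 passed the threshold. The genotype difference was also compared between stages within 1 fit. No member passed the threshold between E9.5 and E11.5, where 0.026% of all genes tested did, or between E11.5 and E12.5, where 0.00653% did. At both steps 0 of 10 had an unadjusted p under 0.05 in edgeR and DESeq2 called 0. These misses do not show an equal difference: the 95% intervals reached from -0.98 to 0.84 and from -0.84 to 0.98. Pitx1 itself missed at the first step (log2 change -1.29, edgeR adjusted p = 0.0558).

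**Figure D2:**
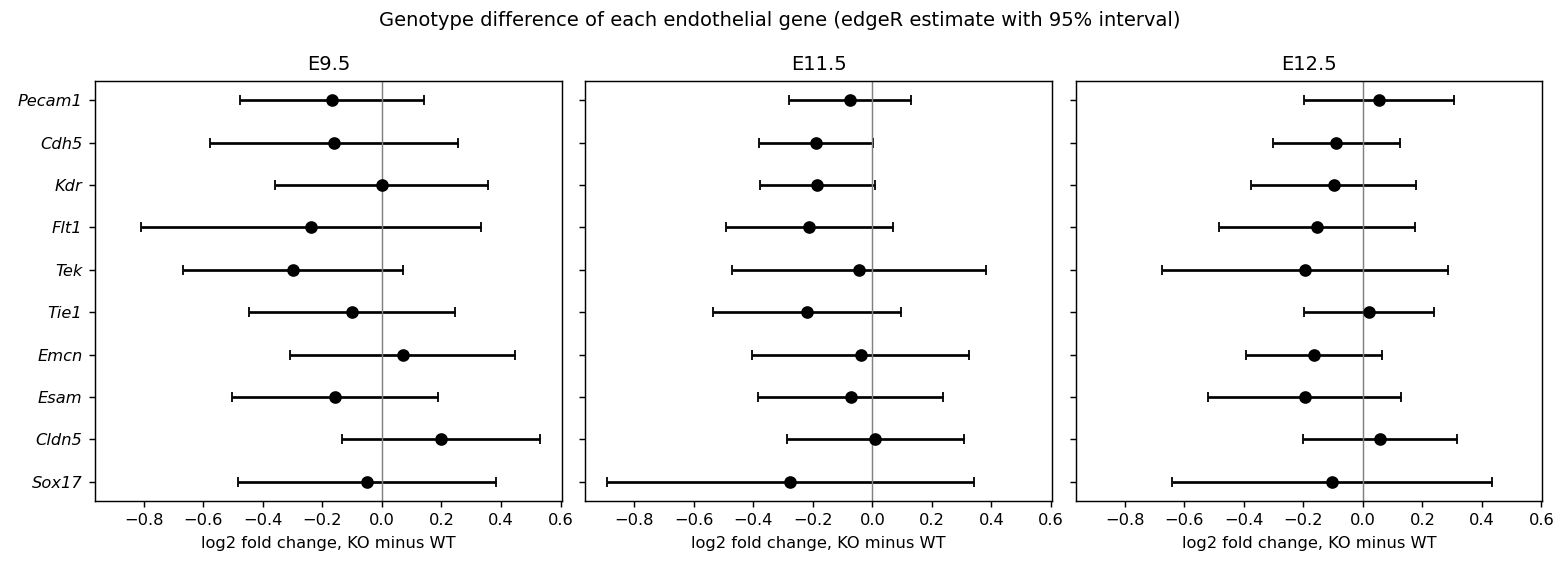
Log2 fold change, KO minus WT (x axis), of each of the 10 endothelial genes by stage (panels). Points are edgeR estimates and bars 95% intervals. Each interval includes 0, and the widest is that of Sox17 at E11.5, from -0.89 to 0.34.

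Genes around these members were measured from lists of the VEGF and angiopoietin system, endothelial transcription factors, other endothelial genes, arterial and Notch genes, and venous and lymphatic genes. At E9.5 none of the 66 passed, and at E11.5 and E12.5 none of the 65 tested passed in edgeR. The numbers with an unadjusted p under 0.05 were 6, 19 and 15, where 4.01%, 22.2% and 15.1% of all genes tested had one. DESeq2 called 0 at E9.5, 1 higher and 4 lower at E11.5, and 1 higher and 3 lower at E12.5, while it called 0.111%, 7.03% and 2.46% of all genes it tested. The medians of their log2 fold changes in edgeR were -0.10, -0.18 and -0.086. Without the third E12.5 wild-type library the E12.5 median was 0.04, with 32 of 65 negative in place of 41 and 0 past the threshold. In that fit 11 of the 65 had an unadjusted p under 0.05, as did 1882 of all 14561 genes tested. Genes of a list share their libraries, so counts of negative or positive values are not independent tests, here and for the lists below. The 24 other endothelial genes had a median of -0.18 at E11.5, with 23 negative, while the 11 transcription factors tested had a median of -0.048. Cd34, a sialomucin, and Egfl7, a secreted endothelial protein, were the highest of the former at E11.5 in level (log2 fold changes 0.02 ± 0.10 and -0.02 ± 0.11, SE). Elk3 and Fli1, both ETS-type factors, had values of -0.05 ± 0.069 and -0.03 ± 0.10 at that stage.

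Between genotypes within a stage, the genes of the vascular lists that DESeq2 called and edgeR did not were Figf (higher), Nos3, Notch1, Nrp1 and Vegfc at E11.5, and Hey2, Jag1 (higher), Nrp1 and Vegfa at E12.5. Of the VEGF ligands among them, Figf (VEGF-D) had a log2 fold change of 0.71 ± 0.21 and Vegfc of -0.52 ± 0.16 at E11.5 (SE, edgeR adjusted p = 0.0930 and 0.105). Vegfa, the main ligand of Kdr and Flt1, held 20.2, 21.0 and 18.7 RPKM in E12.5 wild type and 15.3, 14.8 and 15.4 in E12.5 knockout. The ranges were separate, and the log2 fold change was -0.40 ± 0.068 (SE). Its adjusted p was 0.108 in edgeR and 0.00135 in DESeq2. Nrp1, a co-receptor for VEGF that is also made by limb mesenchyme and neurons, held 15.7, 15.1 and 21.2 RPKM against 10.5, 11.3 and 11.51 at E12.5. The ranges were again separate, as were those of 21.7% of all genes tested at E12.5 (10.3% lower). The log2 fold change of Nrp1 was -0.65 ± 0.13 (adjusted p = 0.155 in edgeR and 0.000242 in DESeq2). Without the third wild-type library the log2 fold change in edgeR was -0.48 for Nrp1 (adjusted p = 0.0521) and -0.44 for Vegfa (0.0580). At E11.5 Nrp1 lay at 17.0 ± 1.70 and 12.99 ± 1.21 RPKM (adjusted p = 0.0652 in edgeR and 0.0111 in DESeq2). Flt4 and the genes DESeq2 called were named after their values were seen, as was Angpt1. Angpt1, the activating ligand of Tek, had a log2 fold change of 0.22 ± 0.14 at E11.5 and -0.35 ± 0.12 at E12.5, with adjusted p of 0.393 and 0.274 in edgeR, and of -0.21 at E12.5 without the third wild-type library (0.383). Vegfb lay at 36.0 ± 6.41 RPKM in E11.5 wild type and 28.2 ± 1.46 in knockout (adjusted p = 0.127), and Nrp2, at 73.6 ± 13.2 and 90.0 ± 17.4 RPKM, had adjusted p = 0.347. Nrp2 carries a failed status of the authors' estimate in the E12.5 table.

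Mural cells, the pericytes and smooth muscle cells that wrap vessels, gave 1 call. Acta2, a smooth muscle actin also made by early striated muscle, held 16.0, 19.9 and 15.1 RPKM in E11.5 wild type and 3.81, 2.92 and 1.67 in knockout. It fell by 2.59 ± 0.29 on the log2 scale (SE, edgeR adjusted p = 0.0208). The call was lost without knockout replicate 2 and without wild-type replicates 1 and 2 (adjusted p = 0.103, 0.104 and 0.0524), and its log2 fold change ran from -2.87 to -2.33 over the fits without a library. All 10 mural genes tested at E11.5 had negative values, with a median of -0.54, and the 11 listed genes summed to 100 to 107 RPKM in wild type and 70.9 to 77.5 in knockout. Pdgfrb, the pericyte growth factor receptor, had -0.08 ± 0.065, and Notch3, a receptor of smooth muscle, -0.26 ± 0.11, neither past the threshold. The part of mural cells in the endothelial values was not tested.

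Other cell types were followed with marker lists beside the endothelial values. At E9.5 all 11 red blood cell genes tested had positive log2 fold changes (median 0.38), with summed RPKM of 22741 to 31479 against 14119 to 25745, and all 9 megakaryocyte genes tested had positive values (median 0.66). At E11.5 all 10 megakaryocyte genes tested had negative values (median -0.63, summed RPKM 36.5 to 52.5 in wild type and 29.7 to 34.2 in knockout) and 13 of 14 macrophage genes did (median -0.57, summed RPKM 30.8 to 41.3 and 25.0 to 28.0). The lowest adjusted p in edgeR was 0.999 for the red blood cell and megakaryocyte genes at E9.5, and 0.0595 and 0.0969 for the megakaryocyte and macrophage genes at E11.5. Of the yolk sac and liver genes, Afp fell by 4.02 ± 0.35 and Apob fell by 4.51 ± 0.73 on the log2 scale at E11.5 (SE, edgeR adjusted p = 0.000982 and 0.0220). The Apob call was lost without knockout replicate 3 or wild-type replicate 1. On log2(RPKM + 1) Apob differed by only -0.082 (limma, adjusted p = 0.432), since its RPKM was far below 1 in both genotypes. The list summed to 4.69 to 6.29 RPKM in knockout against 10.9 to 15.3 in wild type. At E12.5 13 of 14 macrophage genes again had negative values (median -0.54, summed RPKM 59.9 to 74.5 in wild type and 40.4 to 53.1 in knockout), as did all 8 yolk sac and liver genes tested (median -3.24, summed RPKM 12.6 to 401 and 6.40 to 32.2). The lowest adjusted p of these lists in edgeR was 0.150 and 0.171. Without the third wild-type library the medians were -0.36 and -3.64. For the yolk sac and liver genes it was wild-type replicate 1 that stood highest. The mean deviations of 5 of them from the group's mean log2 level were 2.68, -2.16 and -0.52 in wild-type replicates 1 to 3. Without wild-type replicate 1 the E12.5 log2 fold change of Apob was -1.27 in place of -4.46 (edgeR). Among 8 limb mesenchyme genes, Lhx2 rose at E11.5 (log2 fold change 0.52 ± 0.10 SE, edgeR adjusted p = 0.0376), a call lost without knockout replicate 3 and without wild-type replicates 1 and 2. The part of these lists in the endothelial values was not tested.

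The second comparison followed the endothelial genes over time within a genotype, using the raw fragments of 2 stages in 1 fit. From E9.5 to E11.5, 9 of the 10 genes fell in wild type and the same 9 fell in knockout, where 27.6% and 25.5% of all genes tested were called lower and 28.3% and 25% higher. Pecam1 was the exception in both. The median log2 difference of the 10 genes was -0.93 in wild type and -0.89 in knockout, beside 0.011 and 0.0089 over all genes tested. Over the 10 genes the summed level was 177 to 206 RPKM in E9.5 wild type and 91.5 to 114.6 in E11.5 wild type, and 156 to 210 and 90.0 to 99.1 in knockout. Stage cannot be told apart from the dissected tissue, since the E9.5 samples included trunk, nor from the separate table in which each stage was deposited.

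Cldn5 differed the most. On a scale common to all stages, fragments relative to the scaled library size (CPM), it lay at 51.2 ± 10.6 in E9.5 and 14.6 ± 1.88 in E11.5 wild type (SD, n = 3), and at 58.8 ± 3.89 and 14.7 ± 1.10 in knockout. The log2 difference was -1.82 ± 0.15 in wild type and -2.01 ± 0.15 in knockout (SE, edgeR adjusted p = 3.29e-07 and 1.82e-07). Sox17 came next, falling by 1.39 ± 0.25 and by 1.62 ± 0.26 on the log2 scale. Its CPM was 12.6 ± 1.13 in E9.5 and 4.84 ± 1.53 in E11.5 wild type. Beside Sox17, all 6 gut endoderm genes of the marker list fell as well, from summed levels of 12.04 to 55.5 RPKM over the E9.5 libraries to 0.0309 to 0.279 over the E11.5 libraries. The part of gut tissue in the Sox17 difference was not tested.

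All 4 receptor kinase genes fell. Tie1 fell by 1.06 ± 0.16 in wild type and by 1.18 ± 0.16 in knockout, Kdr by 1.01 ± 0.13 and by 1.19 ± 0.14, Tek by 0.97 ± 0.19 and by 0.72 ± 0.19, and Flt1 by 0.85 ± 0.21 and by 0.82 ± 0.21 (log2, SE). On the CPM scale Kdr went from 105 ± 20.1 to 52.1 ± 4.30 in wild type. Cdh5 fell by 0.87 ± 0.15 and by 0.90 ± 0.15, Esam by 0.88 ± 0.15 and by 0.80 ± 0.16, and Emcn by 0.77 ± 0.18 and by 0.89 ± 0.18. For the 9 genes the adjusted p of edgeR was at most 0.00711 in either genotype. Pecam1 lay at 60.4 ± 3.20 CPM in E9.5 and 49.7 ± 4.48 in E11.5 wild type, with log2 differences of -0.28 ± 0.12 (adjusted p = 0.0613) and -0.19 ± 0.12 in knockout (adjusted p = 0.213). Pecam1 passed in wild type without E9.5 knockout replicate 1 or 2 (adjusted p = 0.0343 and 0.0264) and in knockout without E9.5 knockout replicate 1 (0.0435).

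From E11.5 to E12.5, a step that shares the E11.5 libraries with the one before, few members passed. In wild type 0 of the 10 genes passed in edgeR, where 33.4% of all genes tested were called, and 0 by DESeq2. In edgeR 2 of the 10 (Pecam1 and Sox17) had an unadjusted p under 0.05, as did 6769 of all 15324 genes tested. In knockout Pecam1 and Tie1 rose, 2 of 10, where 20.4% of all genes tested were called higher and 41.5% in either direction. Pecam1 went from 44.9 to 50.4 CPM over the E11.5 knockout libraries to 60.8 to 62.0 over the E12.5 ones, without overlap (log2 difference 0.36 ± 0.10 SE, edgeR adjusted p = 0.0137). Tie1 went from 27.3 to 36.0 CPM to 37.3 to 44.5, also without overlap (0.39 ± 0.13, edgeR adjusted p = 0.0282). On this scale 4 of the 10 members lay higher in all E12.5 knockout libraries, among them Cdh5 and Esam, which did not pass. The share of all genes without overlap was not computed for this step. The Tie1 call was lost without E11.5 knockout replicate 1 or 3 (adjusted p = 0.0805 and 0.117) and without E12.5 knockout replicate 1 or 3 (0.0559 and 0.119). In wild type the differences were 0.24 ± 0.10 for Pecam1 and 0.16 ± 0.13 for Tie1, and the tests of the difference between genotypes gave adjusted p of 0.812 and 0.688 (edgeR). A wild-type call appeared for Pecam1 without E12.5 wild-type replicate 1 (adjusted p = 0.0182), for Emcn without E11.5 wild-type replicate 3 (0.0231) and for Sox17 without E11.5 wild-type replicate 2 (0.0330).

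**Figure D3:**
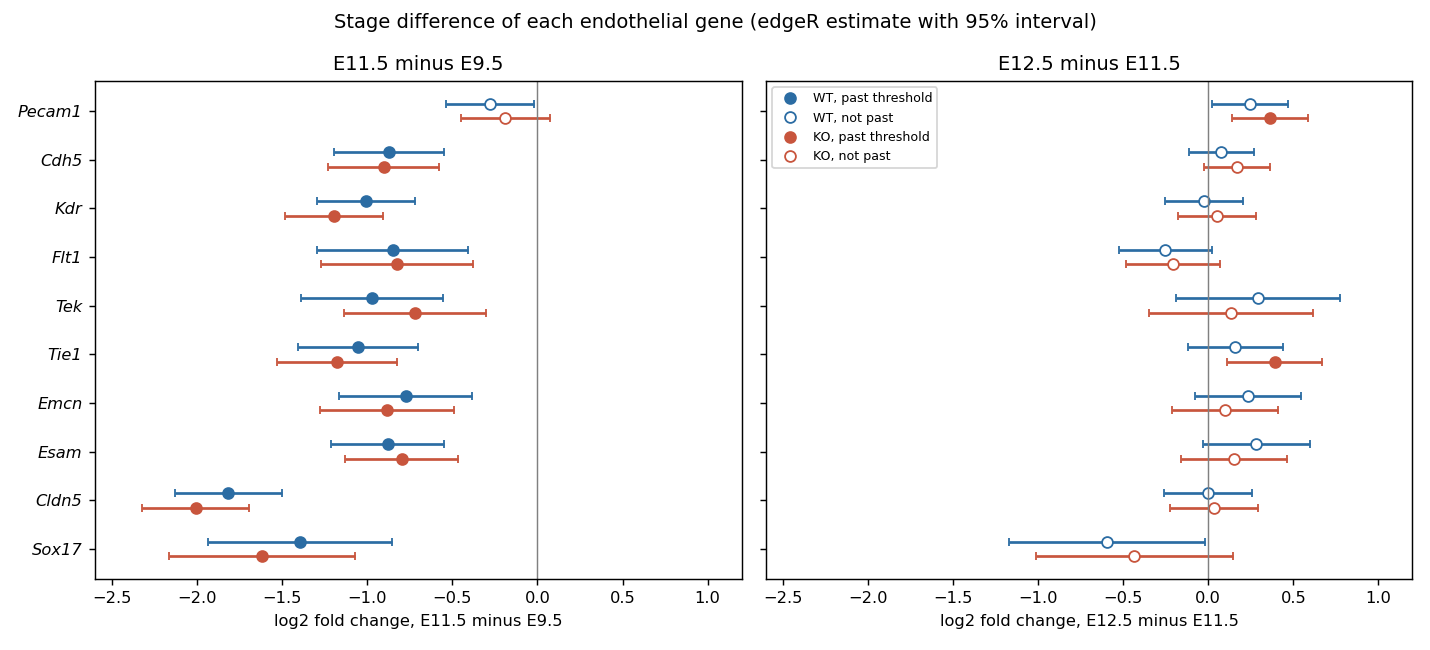
Log2 fold change between stages (x axis) of each of the 10 endothelial genes, E11.5 minus E9.5 and E12.5 minus E11.5 (panels), in wild type and knockout (colours). Points are edgeR estimates, filled where past the threshold, and bars 95% intervals. From E9.5 to E11.5 every gene but Pecam1 is filled on the negative side, with Cldn5 at -1.82 and -2.01. From E11.5 to E12.5 only Pecam1 and Tie1 in knockout are filled.

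The wider vascular lists were read over the same steps. From E9.5 to E11.5, 18 of the 24 other endothelial genes fell in wild type and 1 rose, and 17 fell in knockout, with medians of -0.89 and -0.97. Of all genes tested, 27.6% and 25.5% were called lower in wild type and knockout, 28.3% and 25% higher, and 55.9% and 50.5% in either direction. Plvap, a protein of vessel fenestrae, fell by 1.62 ± 0.11 and by 1.56 ± 0.11 (log2, SE), Ramp2, a partner of the adrenomedullin receptor, fell by 1.75 in wild type, and Cd34 fell by 1.06 ± 0.12 and by 0.78 ± 0.12. Of the 11 VEGF and angiopoietin genes, 5 fell and 2 rose in wild type and 6 fell and 2 rose in knockout. Of the 13 arterial and Notch genes, 7 fell and 2 rose in each genotype. The transcription factors were mixed: 7 of 12 fell in wild type and 2 rose, and 6 fell and 2 rose in knockout. Fli1 rose by 1.68 ± 0.15 in wild type and Elk3 by 1.14 ± 0.093, opposite to the 9 endothelial members, while Erg and Ets1 did not pass (0.24 ± 0.22 and -0.26 ± 0.14 in wild type). From E11.5 to E12.5 Erg rose, from 8.51 ± 2.11 to 32.3 ± 4.44 RPKM in wild type (log2 difference 1.86 ± 0.25, edgeR adjusted p = 0.000743), and Fli1 fell by 0.76 ± 0.15. Without the third E12.5 wild-type library the differences were 1.76 and -0.59, both past the threshold (adjusted p = 0.00349 and 0.00601). Erg is also made in developing cartilage and joints, so its level is not specific to vessels. Of the arterial and venous genes, Efnb2 and Ephb4, a ligand and its receptor, both rose from E9.5 to E11.5 in wild type (0.54 ± 0.12 and 0.59 ± 0.063). Which cells of this bulk tissue made Fli1, Elk3, Efnb2 and Ephb4 was not tested. Macrophage genes rose in 13 of 14 cases in wild type and in 11 of 14 in knockout over that step, where 28.3% and 25% of all genes tested were called higher.

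To compare members with each other without a scaling between libraries, each gene was divided by Cdh5 in the same library. The 6 libraries of a stage were then compared with the 6 of the next by a two-sided exact permutation test on the log2 ratio, with adjustment over 18 tests. The smallest p this design allows is 0.00216. The ratio of Pecam1 to Cdh5 was 0.451 to 0.655 at E9.5, 0.717 to 0.975 at E11.5 and 0.869 to 1.06 at E12.5. The E11.5 values lay above all E9.5 values in 6 of 6 libraries, a log2 difference of 0.65 (exact p = 0.00216, adjusted 0.0130), with 0.59 in wild type and 0.71 in knockout. The second step of 0.17 did not pass (adjusted p = 0.117, exact permutation).

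Cldn5 went the other way. Its ratio to Cdh5 was 0.807 to 1.73 at E9.5 and 0.588 to 0.746 at E11.5, without overlap (log2 difference -1.03, exact permutation, adjusted p = 0.0130), and 0.548 to 0.659 at E12.5. The ratio of Flt1 was 0.0937 to 0.123 at E9.5 and 0.107 to 0.116 at E11.5, and lay lower at E12.5, at 0.0739 to 0.0937 (log2 difference -0.36, exact permutation, adjusted p = 0.0130). The ratio of Sox17 fell by 0.73 on the log2 scale from E9.5 to E11.5 (exact permutation, adjusted p = 0.0292), but its ranges overlapped and the adjusted p was 0.0584 without any of E9.5 wild-type replicates 1 and 2 or E9.5 knockout replicates 1, 2 and 3. For Kdr, Tek, Tie1, Emcn and Esam neither step passed with all libraries. Kdr and Tie1 missed at the first step (log2 differences -0.22 and -0.25, adjusted p = 0.117 and 0.110 by exact permutation), and Esam and Tek differed by 0.04 and 0.02. Without E9.5 wild-type replicate 3 the first step passed for Kdr, Flt1 and Tie1 (adjusted p = 0.0487 each), and without E11.5 knockout replicate 2 for Tie1 (0.0468), by exact permutation. The second step passed for Sox17 without E11.5 knockout replicate 3 (0.0292) or E12.5 wild-type replicate 1 (0.0468), by exact permutation. Both the numerator and the denominator can move such a ratio.

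**Figure D4:**
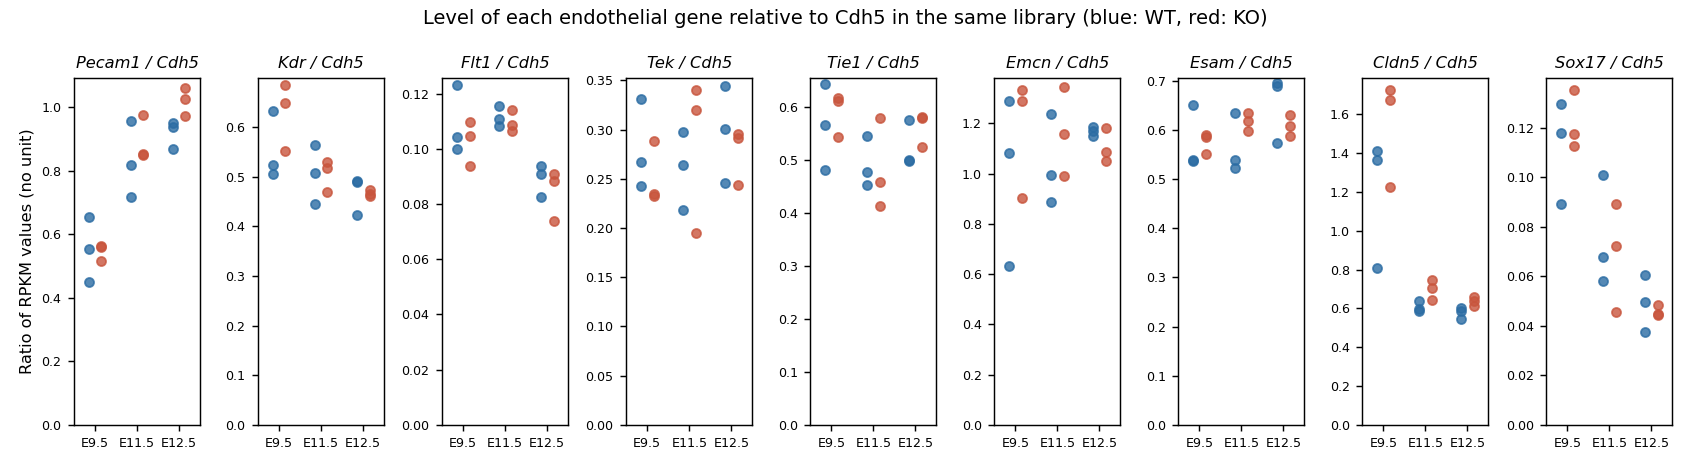
Ratio of the RPKM of each endothelial gene to that of Cdh5 in the same library (y axis, no unit, from 0) by stage (x axis); points are libraries, blue for wild type and red for knockout. Pecam1 goes from 0.451 to 0.655 at E9.5 up to 0.869 to 1.06 at E12.5, and Cldn5 from 0.807 to 1.73 down to 0.548 to 0.659.

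Within a group, the 10 genes tended to be high or low in the same library. After subtraction of each group's mean log2 CPM, the correlation of a gene with the mean of the other 9 over the 18 libraries ran from 0.47 for Emcn to 0.86 for Tie1. The points of such a correlation share their library, its depth and its tissue makeup, so it is a description only. In knockout at E9.5 all 10 genes lay below the group mean in replicate 1 (mean deviation -0.27) and all 10 above it in replicate 2 (0.25). Replicate 3 of E11.5 wild type had all 10 above (0.16). At E12.5 all 10 lay below in wild-type replicate 2 (-0.15) and above in wild-type replicate 3 (0.22), the library with the low Pitx1, whose Pitx1 deviation was -0.89. In knockout replicate 3 of E12.5 all 10 lay above (0.12). Other lists deviated in the same libraries. The red blood cell genes had mean deviations of -0.31 and 0.28 in E9.5 knockout replicates 1 and 2, 0.78 in E11.5 wild-type replicate 3 and 0.59 in E12.5 knockout replicate 3, and of 0.33 and -0.86 in E12.5 wild-type replicates 2 and 3, opposite to the endothelial genes. The mural genes had -0.20, 0.25, 0.46 and 0.24 in the first 4 of these libraries, and -0.021 and 0.18 in the last 2. The part of these lists in the endothelial deviations was not tested.

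**Figure D5:**
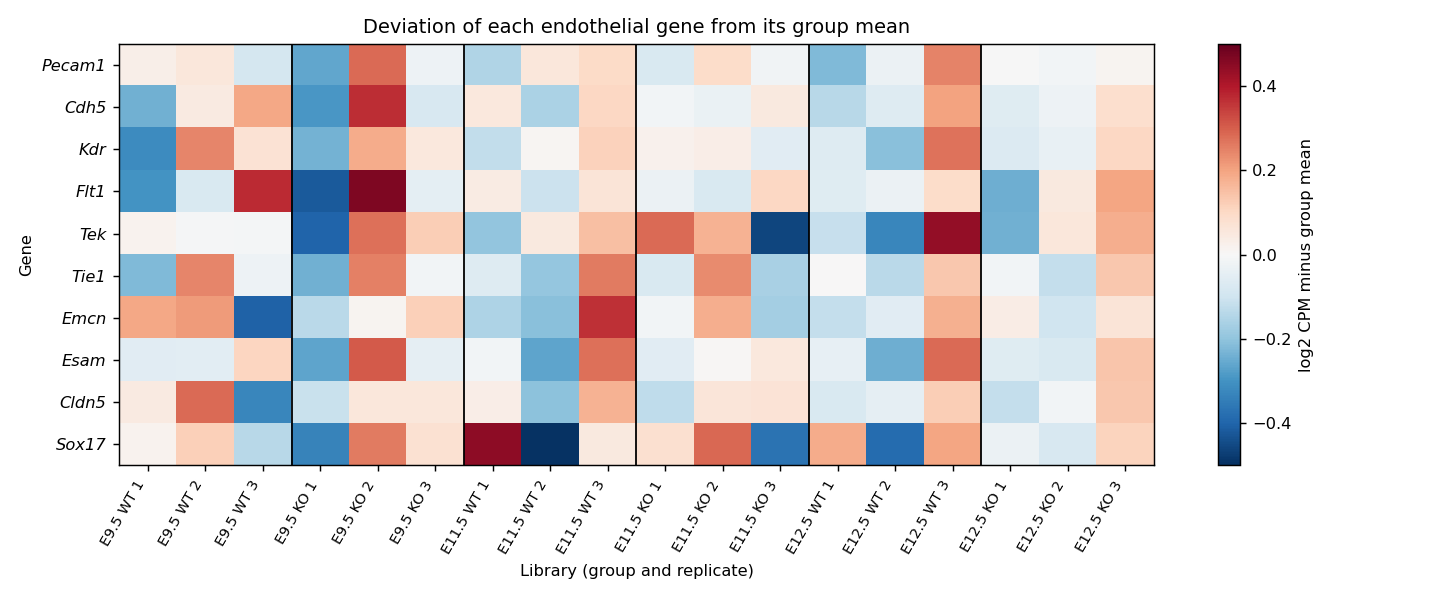
Deviation of log2 CPM from the group mean (colour) for the 10 endothelial genes (y axis) in each of the 18 libraries (x axis). Columns of a single colour mark libraries in which all 10 genes deviate the same way, such as E9.5 knockout replicate 1 (mean -0.27) and replicate 2 (0.25).

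Genes outside the list whose deviations followed the 10 most closely were found among 11184 genes with at least 1 RPKM on average in each stage. The 5 most alike were Spns2, a sphingosine-1-phosphate transporter (Pearson's r = 0.87 over 18 libraries), Abcd3, a peroxisomal transporter (0.86), the beta-globin gene Hbb-bt (0.85), Gja4, a connexin of arterial endothelium (0.85), and Eng, a TGF-beta co-receptor of endothelium (0.85). Across all genes compared, the 5th to 95th percentiles of r were -0.51 and 0.54. The other endothelial genes had a median r of 0.53 (22 genes), the arterial and Notch genes 0.30 (12) and the VEGF and angiopoietin genes 0.16 (9). The endothelial transcription factors had 0.15 (10) and the venous and lymphatic genes -0.26 (3). The red blood cell genes had 0.17 (8) and the mural genes -0.073 (5). Of the 20 most alike genes, 4 belonged to the vascular lists, which held 22, 12, 9, 10 and 3 of the 11184 genes compared.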

How the data were processed

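The submitters' processing notes name FastQC, TopHat2, Cuffdiff and build mm9. The sources used here give no versions, annotation or strand setting. The authors deposited 1 table per stage with raw fragments per gene, which are expected counts (1.79% not whole), and RPKM normalized within that table. Of 23927 gene names, 2 duplicated names and 6 genes with a failed estimate at 0 were left out. The tables number replicates 0 to 2, taken here as 1 to 3.

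Rounded fragments were tested with edgeR 4.0.16 (quasi-likelihood, robust, TMM, filterByExpr, Benjamini-Hochberg, threshold 0.05, R 4.3.3), in 6 libraries per genotype comparison and 12 per stage comparison. DESeq2 1.42.0, limma 3.58.1 on log2(RPKM + 1) and log2(RPKM + 0.1), other scalings and filters and leaving out each library were alternatives. Ratios to Cdh5 were added after the files were read. The fits were tested on simulated data, with changed genes drawn from all genes tested. Between genotypes, 77%, 72% and 74% of 2-fold changes and 28%, 48% and 40% of 1.5-fold changes were recovered at the successive stages. For the change of the genotype difference, 51% and 59% of 2-fold changes and 13% and 28% of 1.5-fold changes were recovered at the successive steps.

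The members and the 12 other lists were chosen with earlier results of these data known. Named were all members, Pitx1, per list and genotype comparison up to 4 genes past the threshold or the 2 with the highest RPKM, and the 5 genes most like the members. Other names are said to be chosen later.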

Additional observations from a re-analysis of the deposited data

How the results depend on the processing

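The 9 counts of members past the threshold stayed within 1.5 times of the reported count under RLE size factors, no filter on low counts, the fit without the robust option, all 18 libraries in 1 fit, DESeq2, limma (genotype comparisons) and the replicate block, 60 of 60 values. Leaving out 1 library moved 7 of 90 counts: E12.5 minus E11.5 gave 0 to 1 members in wild type and 1 to 2 in knockout. Of 900 member values without a library, 826 kept direction and side of the threshold, 6 gained and 4 lost a call, and 64 changed sign. Of 600 values under other settings, 592 kept both. Sign changes there were Kdr at E9.5, KO minus WT (-0.001 as reported), with 0.00027 in DESeq2, 0.0072 and 0.0065 in limma with pseudocounts of 0.1 and 1, 4.03e-05 without a filter on low counts and 0.0038 with the replicate block, and Cldn5, E12.5 minus E11.5 in wild type, with 0.00075 in DESeq2 and 0.0019 with all 18 libraries. Of 216 ratios to Cdh5 without a library, 196 kept both, 6 gained and 5 lost a call, and 9 changed sign. The 5 losses were those of Sox17. In total 36 results changed sign without a library, 0 of them past the threshold, with these lowest and highest values. For the genotype difference at E9.5 the ranges were Emcn -0.11 to 0.17, Kdr -0.15 to 0.12, Sox17 -0.19 to 0.11 and Tie1 -0.24 to 0.028. For the genotype difference at E11.5 the ranges were Cldn5 -0.083 to 0.10, Emcn -0.14 to 0.17, Esam -0.19 to 0.080 and Tek -0.19 to 0.15. For the genotype difference at E12.5 the ranges were Cdh5 -0.16 to 0.017, Cldn5 -0.010 to 0.12, Kdr -0.19 to 0.049, Pecam1 -0.049 to 0.19, Tek -0.34 to 0.061 and Tie1 -0.048 to 0.088. For E12.5 minus E11.5 in wild type the ranges were Cdh5 -0.025 to 0.14, Cldn5 -0.095 to 0.086 and Kdr -0.17 to 0.071. For E12.5 minus E11.5 in knockout the ranges were Cldn5 -0.037 to 0.092, Kdr -0.0032 to 0.085 and Tek -0.063 to 0.28. For the change of the genotype difference from E9.5 to E11.5 the ranges were Cdh5 -0.17 to 0.18, Emcn -0.21 to 0.10, Esam -0.043 to 0.26, Flt1 -0.18 to 0.30, Pecam1 -0.033 to 0.25, Sox17 -0.44 to 0.037 and Tie1 -0.25 to 0.023. For the change of the genotype difference from E11.5 to E12.5 the ranges were Cldn5 -0.052 to 0.13, Esam -0.28 to 0.020, Flt1 -0.066 to 0.16, Kdr -0.019 to 0.22, Sox17 -0.090 to 0.37 and Tek -0.36 to 0.092. For log2 ratios to Cdh5 the ranges were Emcn, E11.5 minus E9.5 -0.099 to 0.12, Emcn, E12.5 minus E11.5 -0.000584 to 0.12 and Tek, E11.5 minus E9.5 -0.052 to 0.11.

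Replicate numbers were not treated as pairs in the main fits. Same-numbered wild-type and knockout libraries of a stage had correlations of their deviations from -0.27 to 0.20, and different-numbered ones from -0.31 to 0.34. At E12.5 the values were 0.12, -0.010 and 0.20 for same numbers and -0.17 to 0.053 for different ones. With 3 libraries per group such correlations cannot decide if the numbers mark pairs. With the replicate block, Pecam1, E11.5 minus E9.5 in wild type, had -0.29 (edgeR adjusted p = 0.0406), and no other call of a member changed. Over all genes the block gave 0, 100 and 386 calls between genotypes at the successive stages in place of 3, 286 and 2. Sox17, at 66 to 147 fragments in E12.5 wild type, is the least precise member except between genotypes at E9.5. There the SE was 0.25 for Flt1 and 0.19 for Sox17. The other members are limited by 3 libraries per group.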
